A study of Mus musculus with 8 samples.

Results

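Hprt and 9 other genes of purine nucleotide synthesis were followed across mouse embryos that differed in stage and in the Tet3 genotype of the oocyte. The genes were Hprt, Aprt, Prps1, Ppat, Gart, Paics, Adsl, Impdh1, Impdh2 and Gmps, and they were taken by symbol from the 23234 genes listed in each library. All 10 were among the 13549 genes tested, which reached 1 FPKM in 2 or more libraries. FPKM is a fragment count per length of transcript and per mapped total of the library, so levels can be set side by side between genes. Hprt was selected on its FPKM in these libraries, being high in blastocysts from Tet3-null oocytes. Its values in any comparison that uses blastocysts are therefore a description, with no test. The other 9 genes were added as its pathway, and the question was whether they share that difference.

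Cells obtain purine nucleotides by salvage or by de novo synthesis. In salvage, phosphoribosyltransferases join a free base to phosphoribosyl pyrophosphate (PRPP): Hprt handles hypoxanthine and guanine, and Aprt handles adenine. In de novo synthesis the ring is built on PRPP in a chain of steps that ends in inosine monophosphate (IMP), which is then turned into adenine or guanine nucleotides. Early embryos begin with nucleotides and transcripts stored in the oocyte and later depend on their own transcription.

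The 8 RNA-seq libraries formed 4 groups of 2: Tet3-null blastocysts, wild-type blastocysts, Tet3-null 2-cell embryos and wild-type 2-cell embryos. Tet3-null here names the oocyte. These oocytes came from superovulated CKO females, which had 1 floxed and 1 null Tet3 allele (f/-) and a Zp3-Cre transgene, active in growing oocytes. Wild-type oocytes came from superovulated f/f females, with both Tet3 alleles floxed; whether they carried Cre is not stated. Eggs of both kinds were fertilized in vitro with CAST/EiJ sperm, so every embryo also received a Tet3 allele from the father. Pools of 7 blastocysts were taken at 96 h, and pools of 10 2-cell embryos at 30 h. The labels do not say whether the pools of a group came from separate females, so the tests gauge the spread among these samples and no more. In pools of whole embryos, fewer cells of a type and less RNA per cell cannot be told apart. Values sum the maternal and the paternal allele.

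The library labels were checked on marker genes. Tet3 had 3.28 and 4.41 FPKM in Tet3-null 2-cell embryos, against 10.8 and 7.54 FPKM in wild-type 2-cell embryos, 2.38-fold lower (log2 change -1.06, SE 0.25, limma adjusted p = 0.0690). The sources used here do not state which exons were removed. In blastocysts Tet3 had 0.519 and 0.412 FPKM in Tet3-null libraries, against 0.957 and 0.459 FPKM in wild-type libraries. These low values overlapped, so Tet3 could not check the genotype labels of the blastocyst libraries. Summed 2-cell markers reached 1.03 to 3.64 FPKM in blastocysts and 1075 to 2063 FPKM in 2-cell embryos, and summed trophectoderm markers reached 2722 to 4507 FPKM in blastocysts and 41.8 to 57.0 FPKM in 2-cell embryos. Cumulus and granulosa markers summed to at most 0.924 FPKM in blastocysts and 30.5 FPKM in 2-cell embryos, where only Tnfaip6 reached 1 FPKM. Tet3-null 2-cell replicate 2 stood apart: it listed 7101 genes at 0, while the other 7 libraries listed 5370 to 6080, and 7 Y-linked genes (all of those followed but Sry) summed to 0.166 FPKM, against 31.7 to 102. Without it the log2 change of Tet3 in 2-cell embryos was -1.23 (limma adjusted p = 0.0797).

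Hprt had 1553 and 1469 FPKM in Tet3-null blastocysts, against 283 and 377 FPKM in wild-type blastocysts. Every Tet3-null library lay far above both wild-type ones. The group means were 1511 and 330 FPKM, a ratio of 4.58, and the log2 change was 2.21 (SE 0.18), between 2.00 and 2.41 over the alternative settings. Ranked by FPKM among all genes of its library, Hprt took places 112 and 122 in Tet3-null blastocysts, compared with places 507 and 401 in wild-type blastocysts. Against Actb, the beta-actin gene, the ratio of Hprt was 0.123 and 0.119 in Tet3-null blastocysts and 0.0219 and 0.0268 in wild-type blastocysts.

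In 2-cell embryos Hprt had 247 and 201 FPKM in Tet3-null libraries, against 180.1 and 153 FPKM in wild-type libraries. The groups did not overlap, with Tet3-null higher 1.34-fold, and the log2 change of 0.42 (SE 0.18) was not called by limma (adjusted p = 0.217). Without Tet3-null 2-cell replicate 2 the log2 change was 0.57 (adjusted p = 0.169). The order of the 4 group means was thus Tet3-null blastocysts, wild-type blastocysts, Tet3-null 2-cell embryos and wild-type 2-cell embryos. No neighbours in that order overlapped in the FPKM of their libraries, but the difference between the 2-cell groups was not called. By rank within a library, wild-type blastocysts and Tet3-null 2-cell embryos did overlap. Hprt took places 507 and 401 in the former and places 435 and 508 in the latter. Summed over all genes, FPKM was higher in every blastocyst library than in any 2-cell library. The order of wild-type blastocysts and Tet3-null 2-cell embryos therefore depended on the scale used. From 2-cell to blastocyst, mean Hprt differed 6.75-fold among Tet3-null embryos (log2 change 2.76, between 2.07 and 2.90 over the alternatives). Among wild-type embryos it differed 1.98-fold (log2 change 0.97, between 0.48 and 1.18).

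The sequence just upstream of the annotated transcript start is shown for Hprt, which stood apart by genotype, for Prps1, the other X-linked gene of the set, and for Gart, which had the largest stage difference of the 10. The sequences are from RefSeq on build GRCm38.p6, 250 bases each, written 5′ to 3′ on the strand of the gene. The deposited values used the older build mm9. Capitals mark GC boxes (GGGCGG) and CCAAT boxes (CCAAT) found on either strand, and no marked motifs overlap.
Hprt, chrX:52987828-52988077, plus strand: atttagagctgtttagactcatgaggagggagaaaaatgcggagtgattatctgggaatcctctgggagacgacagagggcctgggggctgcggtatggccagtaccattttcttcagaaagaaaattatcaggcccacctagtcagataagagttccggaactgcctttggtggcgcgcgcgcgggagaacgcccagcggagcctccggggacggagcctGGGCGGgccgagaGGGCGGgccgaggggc
Prps1, chrX:140456353-140456602, plus strand: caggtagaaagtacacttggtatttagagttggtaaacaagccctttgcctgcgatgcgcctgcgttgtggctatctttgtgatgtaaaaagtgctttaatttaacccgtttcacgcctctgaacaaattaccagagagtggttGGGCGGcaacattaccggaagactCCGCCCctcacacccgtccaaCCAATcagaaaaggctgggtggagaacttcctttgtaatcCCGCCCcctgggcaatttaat
Gart, chr16:91646973-91647222, minus strand: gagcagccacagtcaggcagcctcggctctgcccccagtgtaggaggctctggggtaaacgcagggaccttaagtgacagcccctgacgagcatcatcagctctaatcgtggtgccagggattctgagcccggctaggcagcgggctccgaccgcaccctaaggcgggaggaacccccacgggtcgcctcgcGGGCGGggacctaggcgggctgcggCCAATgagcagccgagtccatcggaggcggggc
The Hprt window held 2 GC boxes close to the start and no CCAAT box. Prps1 had 3 GC boxes and 1 CCAAT box, and Gart had 1 of each. All 10 genes matched a RefSeq window, and all 10 held a GC box within these 250 bases, as did 32.7% of the 32851 promoter windows searched. A CCAAT box was present in 3 of the 10 (Gart, Paics and Prps1), against 33.8% of windows. The E-box CACGTG, searched in the same way, was present in 2 of the 10, Paics and Impdh2, against 6.02% of windows. These matches are a description of letters, not of bound factors.

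**Figure D1:**
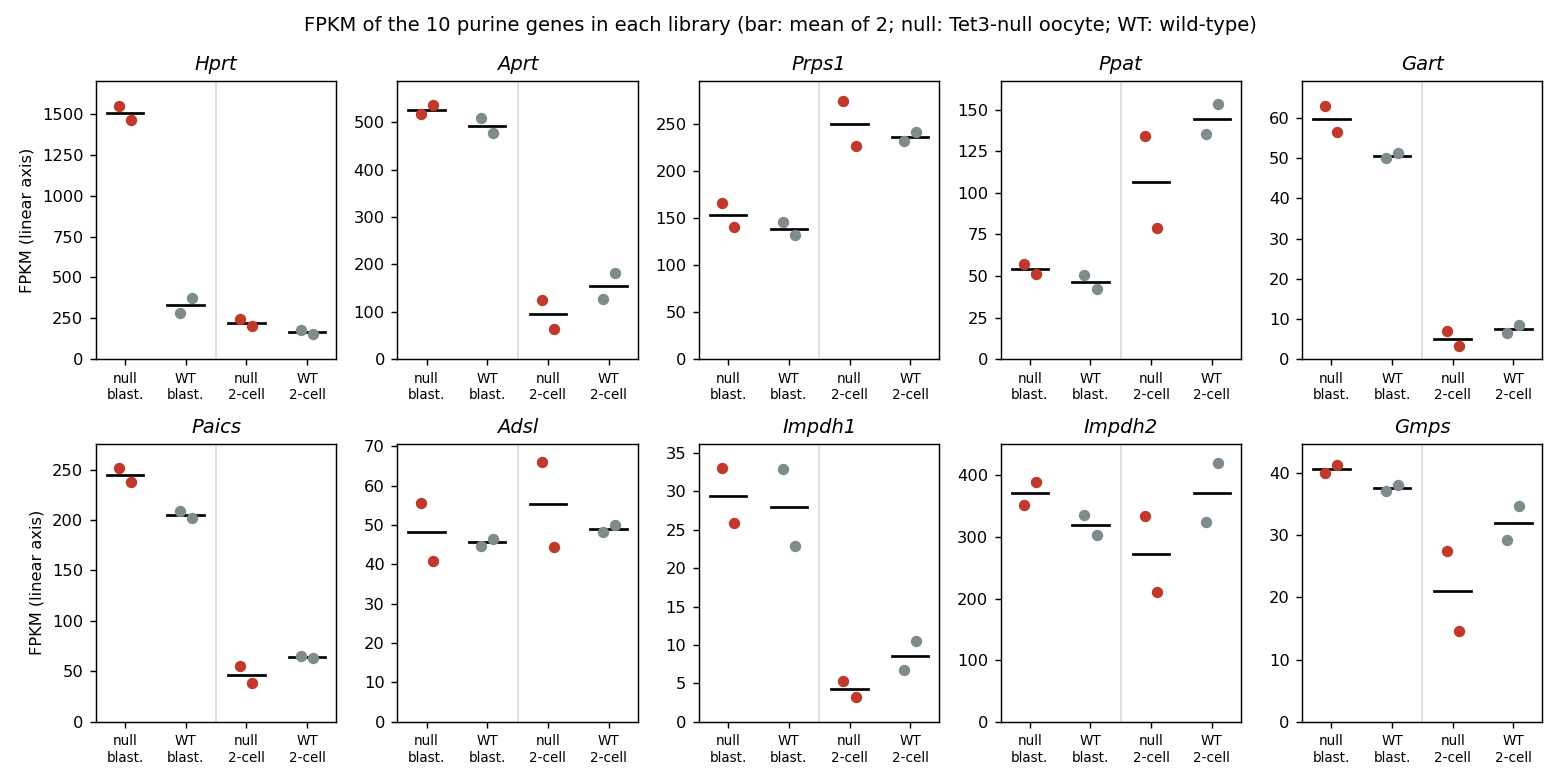
FPKM (linear axes, each from 0) of the 10 purine genes in the 8 libraries, by group. Points are libraries and bars are means of 2. Only the Hprt panel shows Tet3-null blastocysts far above every other library, while Aprt, Gart, Paics and Impdh1 are higher in blastocysts of both genotypes.

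The salvage partner of Hprt did not show the same pattern. Aprt, which makes AMP from adenine, had 518 and 536 FPKM in Tet3-null blastocysts, against 509 and 477 FPKM in wild-type blastocysts. All 4 values lay close together, with Tet3-null slightly higher and without overlap. The log2 change was 0.10, with a 95% interval of -0.62 to 0.82 (SE 0.30, limma adjusted p = 1). In 2-cell embryos Aprt had 124 and 64.4 FPKM in Tet3-null libraries, against 127 and 181 FPKM in wild-type libraries, a log2 change of -0.75 that was not called (SE 0.30, adjusted p = 0.195). The low Tet3-null value was that of replicate 2, and without that library the log2 change was -0.29 (adjusted p = 0.482).

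Aprt rose with stage in both genotypes, 5.59-fold among Tet3-null embryos (log2 change 2.54, adjusted p = 0.000211) and 3.20-fold among wild-type embryos (1.69, adjusted p = 0.00173). The ratio of Hprt to Aprt within a library was 3.001 and 2.74 in Tet3-null blastocysts and 0.556 and 0.791 in wild-type blastocysts. Among 2-cell embryos it was 1.99 and 3.13 in Tet3-null libraries, compared with 1.42 and 0.845 in wild-type libraries. Hprt therefore stood above Aprt in every Tet3-null library and below it in both wild-type blastocyst libraries. The ratio was chosen after the values of Hprt were known and is not tested.

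**Figure D2:**
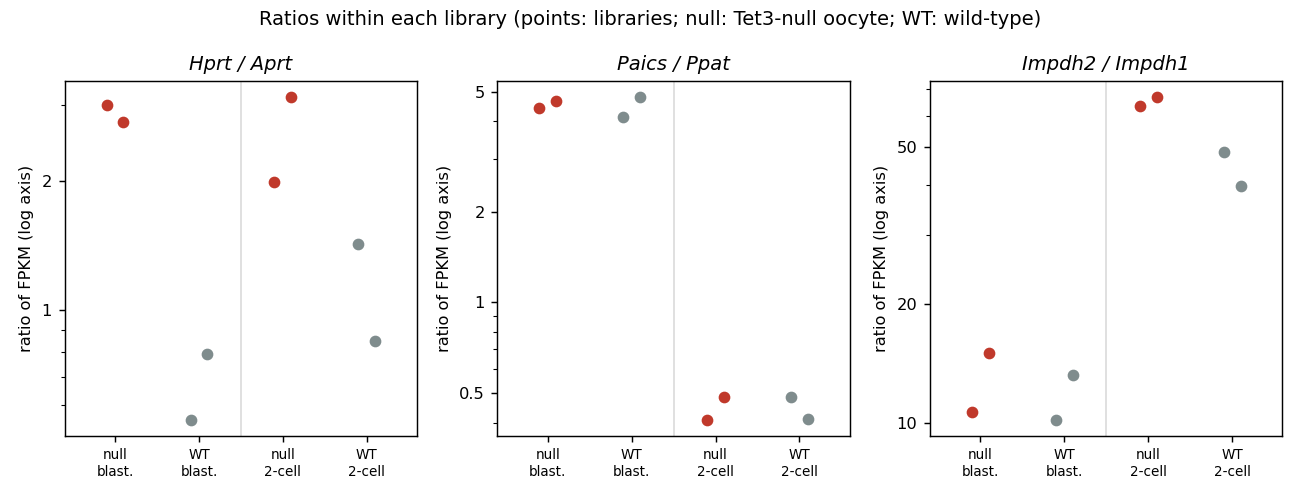
Ratios of FPKM within each library (log axes): Hprt to Aprt, Paics to Ppat, and Impdh2 to Impdh1, by group. Points are libraries. Paics to Ppat was 4.11 to 4.79 in the 4 blastocyst libraries and 0.409 to 0.486 in the 4 2-cell libraries, and Hprt to Aprt separates the blastocysts by genotype.

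Supply of PRPP, the substrate that salvage and de novo synthesis share, was followed through Prps1, an X-linked PRPP synthetase. Prps1 had 166 and 141 FPKM in Tet3-null blastocysts, against 146 and 132 FPKM in wild-type blastocysts. The groups overlapped, and the log2 change was 0.14 with a 95% interval of -0.22 to 0.50. In 2-cell embryos its values were 275 and 227 FPKM in Tet3-null libraries, against 232 and 242 FPKM in wild-type libraries (log2 change 0.08, limma adjusted p = 0.799). Prps1 fell with stage in both genotypes: blastocysts were 1.64-fold lower than 2-cell embryos among Tet3-null (log2 change -0.71, adjusted p = 0.00404) and 1.70-fold lower among wild-type embryos (-0.77, adjusted p = 0.00277). In 10.1% of its 50-base transcript windows Prps1 is identical to Prps1l3, a Prps1-like gene, so reads could have been split between these genes.

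Ppat, the amidotransferase that commits PRPP to the de novo chain, followed the same direction. It had 57.3 and 51.0 FPKM in Tet3-null blastocysts, against 50.9 and 42.1 FPKM in wild-type blastocysts, with a log2 change of 0.22 (95% interval -0.38 to 0.81). Its 2-cell values were 134 and 79.0 FPKM in Tet3-null libraries and 135 and 154 FPKM in wild-type libraries (log2 change -0.48, adjusted p = 0.290). Ppat fell with stage in both genotypes, 1.97-fold lower in blastocysts among Tet3-null (log2 change -0.92, adjusted p = 0.0127) and 3.11-fold lower among wild-type embryos (-1.62, adjusted p = 0.000840). The Tet3-null call was lost without Tet3-null blastocyst replicate 2 (adjusted p = 0.0692).

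Gart and Paics, by contrast, rose with stage. Gart, a multifunctional enzyme that uses formyl-folate, had 63.0 and 56.6 FPKM in Tet3-null blastocysts, against 50.03 and 51.3 FPKM in wild-type blastocysts. In 2-cell embryos it had 6.88 and 3.15 FPKM in Tet3-null libraries, against 6.39 and 8.60 FPKM in wild-type libraries. Gart was thus weak in every 2-cell library, and the blastocyst values of the genotypes did not overlap but lay near each other (log2 change 0.23, 95% interval -0.48 to 0.94). The rise with stage was 11.9-fold among Tet3-null embryos (log2 change 3.41, SE 0.30, adjusted p = 4.34e-05) and 6.76-fold among wild-type embryos (2.62, adjusted p = 0.000177). Without Tet3-null 2-cell replicate 1 the Tet3-null ratio was 19.0. Gart is identical to the annotated gene Gm15964, which the files do not list, in 14.2% of its 50-base windows, so part of its level is uncertain.

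Paics, which carries out consecutive steps in the second part of the chain, had 252 and 238 FPKM in Tet3-null blastocysts, against 209 and 202 FPKM in wild-type blastocysts. In 2-cell embryos its values were 54.9 and 38.4 FPKM in Tet3-null libraries and 65.6 and 63.4 FPKM in wild-type libraries. At each stage the genotypes did not overlap, with Tet3-null above wild-type in blastocysts and below it in 2-cell embryos. Neither difference was called (blastocyst log2 change 0.25, 95% interval -0.17 to 0.67; 2-cell log2 change -0.48, adjusted p = 0.164). Paics rose with stage 5.26-fold among Tet3-null (log2 change 2.39, adjusted p = 1.96e-05) and 3.18-fold among wild-type embryos (1.66, adjusted p = 0.000127).

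Paics and Ppat are neighbours transcribed in opposite directions, and their annotated transcripts share sequence. Of the 50-base windows of Ppat, 223 (5.67%) are also found in Paics, on either strand. The place of these windows in the transcripts was not recorded. The library kit does not mark strand, so reads in the shared sequence cannot be told apart. Paics nevertheless exceeded Ppat 4.40- and 4.67-fold in Tet3-null blastocysts and 4.11- and 4.79-fold in wild-type blastocysts. In 2-cell embryos the ratio was 0.409 and 0.486 in Tet3-null libraries, compared with 0.485 and 0.412 in wild-type libraries. The pair thus exchanged order between stages, and the genotypes overlapped in the ratio at each stage. The E-boxes found upstream of Paics and Impdh2 are shown on the plus strand, with CACGTG in capitals. Both stretches overlap annotated untranslated regions, 2 at the Paics site and 1 at the Impdh2 site. The genes that these regions belong to were not recorded.
Paics, chr5:76951089-76951114: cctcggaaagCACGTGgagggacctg
Impdh2, chr9:108560316-108560341: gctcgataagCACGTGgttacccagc

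Adsl, which acts in the de novo chain and again on the way from IMP to AMP, varied least with stage among the 10. Its blastocyst values were 55.5 and 40.9 FPKM in Tet3-null libraries, against 44.7 and 46.4 FPKM in wild-type libraries. The 2-cell values were 66.0 and 44.5 FPKM in Tet3-null libraries, against 48.1 and 50.1 FPKM in wild-type libraries. At each stage both wild-type values lay between the Tet3-null ones. No comparison called Adsl, with log2 changes of 0.06 between blastocyst genotypes (95% interval -0.47 to 0.59) and 0.14 between 2-cell genotypes (adjusted p = 0.745). By stage they were -0.18 among Tet3-null (adjusted p = 0.482) and -0.11 among wild-type embryos (adjusted p = 0.684).

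The branch from IMP to guanine nucleotides begins with IMP dehydrogenase, encoded by Impdh1 and Impdh2. Impdh1 had 33.0 and 25.8 FPKM in Tet3-null blastocysts, against 32.9 and 22.9 FPKM in wild-type blastocysts. Its 2-cell values were 5.26 and 3.16 FPKM in Tet3-null libraries, against 6.69 and 10.5 FPKM in wild-type libraries. Blastocyst values of the genotypes overlapped (log2 change 0.09, 95% interval -0.64 to 0.81), and the 2-cell difference was not called (log2 change -0.88, adjusted p = 0.147). Impdh1 rose with stage 6.99-fold among Tet3-null (log2 change 2.57, adjusted p = 0.000208) and 3.25-fold among wild-type embryos (1.60, adjusted p = 0.00238).

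Impdh2 was the more abundant of the dehydrogenase pair in every library. It had 352 and 389 FPKM in Tet3-null blastocysts, against 336 and 303 FPKM in wild-type blastocysts (log2 change 0.21, 95% interval -0.34 to 0.76). In 2-cell embryos it had 334 and 211 FPKM in Tet3-null libraries, against 324 and 419 FPKM in wild-type libraries (log2 change -0.47, adjusted p = 0.268). No stage change of Impdh2 was called, with log2 changes of 0.48 among Tet3-null (adjusted p = 0.101) and -0.21 among wild-type embryos (adjusted p = 0.443). With Impdh1 higher in blastocysts, the ratio of Impdh2 to Impdh1 was 10.7 and 15.1 in Tet3-null blastocysts and 10.2 and 13.2 in wild-type blastocysts. It was 63.5 and 66.9 in Tet3-null 2-cell libraries and 48.5 and 40.0 in wild-type 2-cell libraries. Impdh2 shares 73.9% of its 50-base windows with the pseudogene Impdh2-ps, which the files do not list, so its level is uncertain.

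Gmps, which completes GMP, had 39.9 and 41.2 FPKM in Tet3-null blastocysts, against 37.1 and 38.0 FPKM in wild-type blastocysts. Its 2-cell values were 27.5 and 14.6 FPKM in Tet3-null libraries, against 29.2 and 34.6 FPKM in wild-type libraries. The blastocyst values lay within a narrow range (log2 change 0.11, 95% interval -0.53 to 0.75), and the lowest value was again that of Tet3-null 2-cell replicate 2. Gmps rose 1.93-fold with stage among Tet3-null embryos (log2 change 0.98, adjusted p = 0.0133), a call lost in 3 of the 14 alternatives (adjusted p up to 0.0603). Without Tet3-null 2-cell replicate 2 that change was 0.54 (adjusted p = 0.0140). Among wild-type embryos its log2 change was 0.23 (adjusted p = 0.456). The share of 50-base windows found in other genes was 4.12% for Gmps and 1.45% for Adsl, and it was 0 for Hprt, Aprt and Impdh1.

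Read as a set, none of the 9 genes other than Hprt had a blastocyst difference near that of Hprt. None of the 9 was called between Tet3-null and wild-type blastocysts by limma with Benjamini-Hochberg adjustment, where 0.0664% of all genes were called, and none had an unadjusted p under 0.05, as 740 of the 13549 genes did. Their log2 changes were all above 0 but small, from 0.06 to 0.25 with a median of 0.14, against a median of -0.02 over all genes. The highest upper end of their 95% intervals was 0.94, for Gart, a ratio of 1.92. Values of 6 of the 9 did not overlap between genotypes with Tet3-null higher, against 19.0% of all genes. The summed FPKM of the 9 was 1535 and 1520 in Tet3-null blastocysts and 1416 and 1314 in wild-type blastocysts. By contrast, Hprt alone held about as much FPKM in Tet3-null blastocysts as these 9 together.

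**Figure D3:**
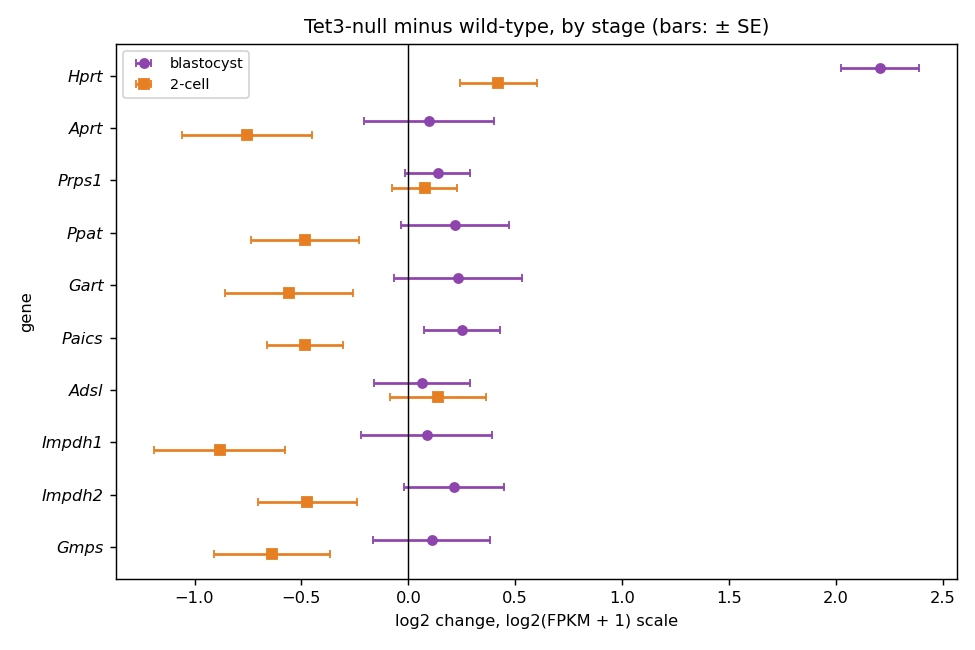
Log2 change between Tet3-null and wild-type embryos for each of the 10 genes, in blastocysts (circles) and in 2-cell embryos (squares), with standard errors from limma on log2(FPKM + 1). In blastocysts Hprt lies at 2.21 and the other 9 between 0.06 and 0.25, and in 2-cell embryos 7 of the 10 lie below 0.

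In 2-cell embryos 7 of the 10 log2 changes were below 0, and those of Hprt, Prps1 and Adsl were above 0. None of the 10 was called, against 2.72% of all genes, and 3 had an unadjusted p under 0.05, as 3212 of all genes did. The median log2 change was -0.48, against -0.17 over all genes. Another scaling of the libraries (median of ratios) moved the median of all genes to 0.02 and that of the 10 to -0.21. Values did not overlap with Tet3-null lower for 5 of the 10, against 34.9% of all genes, and with Tet3-null higher for Hprt alone, against 12.6% of all genes.

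These 2-cell values rest on which Tet3-null library is used. Without replicate 2, which stood apart, none of the 10 was called, while 2.52% of all genes were, and their median was -0.12, against -0.14 over all genes. Gene by gene it was then 0.57 for Hprt, 0.42 for Adsl and 0.21 for Prps1. For the other 7 it was between -0.59, for Impdh1, and -0.10. Without replicate 1, which leaves replicate 2 as the lone Tet3-null 2-cell library and assumes it to vary like the other groups, 7 of the 10 were called lower, while 25.7% of all genes were then called. The difference of the genotype effects between stages was called for none of the 9 (0.140% of all genes), with a median of 0.73, against 0.13 over all genes. An unadjusted p under 0.05, which 1945 of all genes had, was found among them for Paics alone (difference 0.73, limma adjusted p = 0.271). Without Tet3-null 2-cell replicate 2 that median was 0.33, against 0.10 over all genes, with none called, while 0.180% of all genes were called, and without replicate 1 there were 6 called, when 12.8% of all genes were. For Hprt the difference of effects was 1.78 (SE 0.26), given as a description.

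Between stages the 9 genes moved in both directions. Among Tet3-null embryos 5 of the 9 rose (Aprt, Gart, Gmps, Impdh1 and Paics) and 2 fell (Ppat and Prps1), where 74.0% of all genes were called, 38.9% higher and 35.1% lower. Among wild-type embryos 4 rose (Aprt, Gart, Impdh1 and Paics) and 2 fell (Ppat and Prps1), where 74.3% of all genes were called, 35.8% higher and 38.4% lower. Shares this near to the background say nothing particular to the set. The median log2 change of the 9 was 0.98 among Tet3-null and 0.23 among wild-type embryos, against 0.09 and -0.08 over all genes. The Tet3-null stage comparison uses the same low 2-cell library, without which its median was 0.54, against 0.06 over all genes, and the same number, 7, was called, while 75.0% of all genes were.

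**Figure D4:**
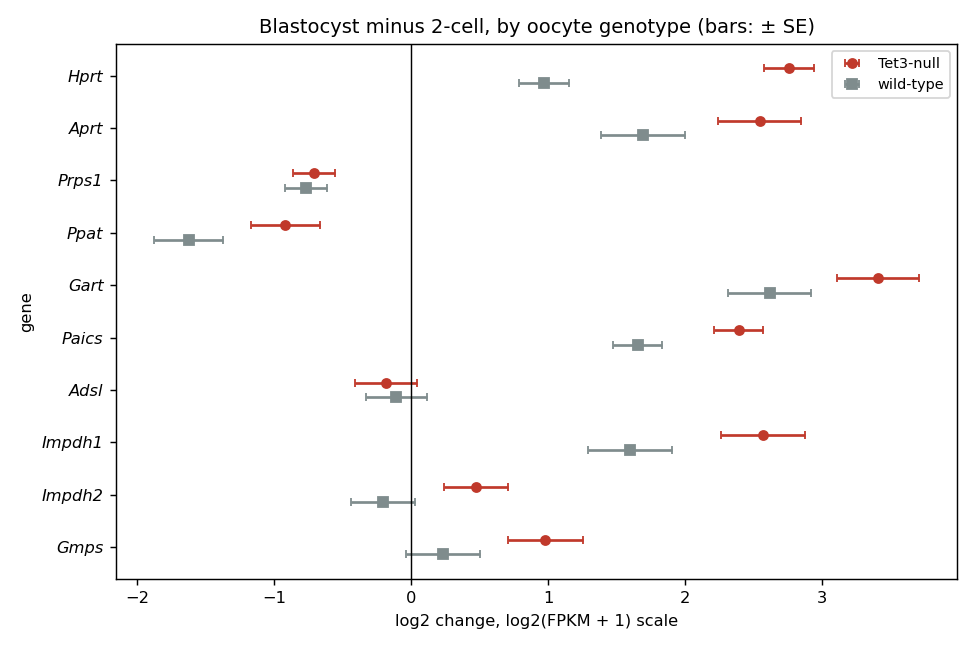
Log2 change between blastocysts and 2-cell embryos for each of the 10 genes, among Tet3-null (circles) and wild-type (squares) embryos, with standard errors from limma on log2(FPKM + 1). Prps1 and Ppat lie below 0 in both genotypes, Aprt, Gart, Paics and Impdh1 lie above 1.5, and Adsl lies near 0.

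Other enzymes of purine synthesis were not called by genotype either. Of 9 further de novo genes, 8 were tested, and none was called at either stage, with median log2 changes of 0.01 and -0.27. Over all genes 0.0664% were called by genotype in blastocysts and 2.72% in 2-cell embryos. The lack of a call in a short list therefore says little particular to it. With stage, 4 rose and 3 fell in each genotype, where 74.0% of all genes were called among Tet3-null and 74.3% among wild-type embryos. Pfas, the synthase that acts between the steps of Gart, had 29.3 and 26.3 FPKM in Tet3-null blastocysts and 25.4 and 28.2 FPKM in wild-type blastocysts. In 2-cell embryos it had 3.91 and 2.96 FPKM in Tet3-null libraries, against 5.38 and 5.61 FPKM in wild-type libraries. Its rise was 8.10-fold among Tet3-null (adjusted p = 9.96e-06) and 4.88-fold among wild-type embryos (adjusted p = 3.46e-05). Atic, which closes the ring to IMP, had 25.0 and 25.6 FPKM in Tet3-null blastocysts, against 1.55 and 0.718 FPKM in Tet3-null 2-cell embryos (log2 change 3.65, adjusted p = 0.000126). Among wild-type embryos it had 21.5 and 22.7 FPKM in blastocysts, against 1.90 and 5.91 FPKM in 2-cell embryos (2.37, adjusted p = 0.00120). The 2-cell libraries thus differed widely within each genotype. Prps2, the other X-linked PRPP synthetase, rose 14.5- and 12.7-fold but reached only 2.55 to 4.16 FPKM in blastocysts. Prps1l3 and the PRPP synthetase-associated Prpsap1 fell in both genotypes, as Prps1 did.

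Among 22 genes of purine salvage, interconversion and breakdown, 18 were tested and none was called by genotype at either stage (median log2 change 0.08 in blastocysts and 0.0046 in 2-cell embryos). By stage 6 rose and 8 fell among Tet3-null, and 7 rose and 6 fell among wild-type embryos. Of all genes 74.0% were called by stage among Tet3-null and 74.3% among wild-type embryos. By genotype 0.0664% of all genes were called in blastocysts and 2.72% in 2-cell embryos. The 5 named by the smallest p were genes that fell, and they break down or interconvert purines. The largest log2 change of the list was a rise, that of the nucleotidase gene Nt5c (5.65 among Tet3-null, 5.26 among wild-type embryos). Nt5c had mean levels of 105 and 138 FPKM in Tet3-null and wild-type blastocysts, against 1.75 and 2.67 FPKM in 2-cell embryos. Itpa, Guk1 and Gmpr2 also rose in both genotypes. Nt5c and these genes were picked after their values were seen. Gda, the guanine deaminase that removes a substrate of Hprt, had 0.0364 and 0.0127 FPKM in Tet3-null blastocysts, against 15.8 and 18.0 FPKM in Tet3-null 2-cell embryos (log2 change -4.13, adjusted p = 1.49e-06). Among wild-type embryos it had 0.0294 and 0.0372 FPKM in blastocysts, against 14.0 and 12.8 FPKM in 2-cell embryos (-3.80, adjusted p = 2.38e-06).

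Xdh, which oxidizes hypoxanthine, the other base that Hprt recovers, had at most 0.0155 FPKM in blastocysts, where 1 library of each genotype listed it at 0. In 2-cell embryos it had 9.48 and 14.0 FPKM in the Tet3-null libraries, against 7.74 and 6.25 FPKM in the wild-type libraries. Its log2 change with stage was -3.64 among Tet3-null (adjusted p = 7.71e-06) and -2.98 among wild-type embryos (adjusted p = 2.08e-05). Pnp, which releases hypoxanthine and guanine from nucleosides, fell 4.26-fold among Tet3-null and 3.72-fold among wild-type embryos (adjusted p = 1.67e-05 and 2.99e-05). The AMP deaminases Ampd1 and Ampd3 also fell in both genotypes, with at most 0.273 FPKM in any blastocyst library. The third AMP deaminase gene, Ampd2, rose in both genotypes. It had 5.22 and 5.50 FPKM in Tet3-null blastocysts, against 0.112 and 0.0393 FPKM in Tet3-null 2-cell embryos (log2 change 2.56, adjusted p = 3.80e-05). Among wild-type embryos it had 4.70 and 3.53 FPKM in blastocysts, against 0.526 and 0.105 FPKM in 2-cell embryos (1.97, adjusted p = 0.000154). Ada, the adenosine deaminase, also rose in both genotypes (log2 change 2.22 among Tet3-null and 2.19 among wild-type embryos, adjusted p = 0.00301 and 0.00329). Ampd2 and Ada were chosen after their values were seen. Gda and Xdh were thus near 0 in blastocysts of both genotypes, where Hprt had 283 FPKM or more in all 4 libraries.

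One-carbon folate enzymes, which supply the formyl groups for Gart and Atic, were not called by genotype either (0 of 10 tested at both stages, blastocyst median 0.02). With stage, 5 rose and 1 fell in each genotype. Of all genes 74.0% were called by stage among Tet3-null and 74.3% among wild-type embryos. By genotype 0.0664% of all genes were called in blastocysts and 2.72% in 2-cell embryos. Mthfd1, the cytosolic enzyme that makes formyl-folate, had 92.5 and 87.2 FPKM in Tet3-null blastocysts, against 2.53 and 3.58 FPKM in Tet3-null 2-cell embryos, a 29.4-fold rise (adjusted p = 4.75e-06). Among wild-type embryos it rose 19.8-fold (adjusted p = 8.50e-06). Its mitochondrial relative Mthfd2 fell 8.82-fold among Tet3-null and 5.91-fold among wild-type embryos (adjusted p = 6.03e-06 and 1.63e-05).

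Other nucleotide genes, not all of them outside purine metabolism, were not called by genotype. None passed at either stage among 17 tested genes of pyrimidine synthesis and salvage, 13 of deoxynucleotide supply and 5 of nucleoside and nucleobase transport. Their blastocyst medians were 0.03, 0.10 and 0.09. Of all genes 0.0664% were called by genotype in blastocysts and 2.72% in 2-cell embryos. By stage 8 pyrimidine genes rose and 5 fell among Tet3-null, and 9 rose and 5 fell among wild-type embryos. Tk1, the thymidine kinase, rose 8.10- and 6.19-fold, and Tyms, which makes thymidylate, rose 5.11- and 4.35-fold, among Tet3-null and wild-type embryos. Of the deoxynucleotide genes 11 rose and 2 fell in each genotype. By stage 74.0% of all genes were called among Tet3-null and 74.3% among wild-type embryos. Nme1, a nucleoside diphosphate kinase, reached 809 and 755 FPKM in Tet3-null and 714 and 728 FPKM in wild-type blastocysts. Rrm2b, a small subunit of ribonucleotide reductase, fell 31.8-fold among Tet3-null and 31.1-fold among wild-type embryos. The nucleoside transporter Slc29a1 rose in both genotypes (adjusted p = 2.83e-06 among Tet3-null and 2.66e-06 among wild-type embryos), with 15.8 to 22.3 FPKM in blastocysts and 0.0337 to 0.272 FPKM in 2-cell embryos.

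These lists also used the Tet3-null 2-cell library that stood apart, and leaving it out leaves a lone Tet3-null 2-cell library. By genotype in 2-cell embryos the medians were then -0.23 for the other de novo, 0.02 for salvage and 0.15 for folate genes. They were 0.03 for pyrimidine, -0.38 for deoxynucleotide and 0.13 for transport genes, against -0.14 over all genes. The transport gene Slc43a3, chosen after its values were seen, had a log2 change of -1.20. With all libraries its log2 change was -0.49 (limma adjusted p = 0.503). With stage among Tet3-null embryos, the medians were then 0.72 for other de novo, -0.41 for salvage and 0.80 for folate genes. For pyrimidine genes the median was 0.72, for deoxynucleotide genes 2.28, and over all genes 0.06.

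**Figure D5:**
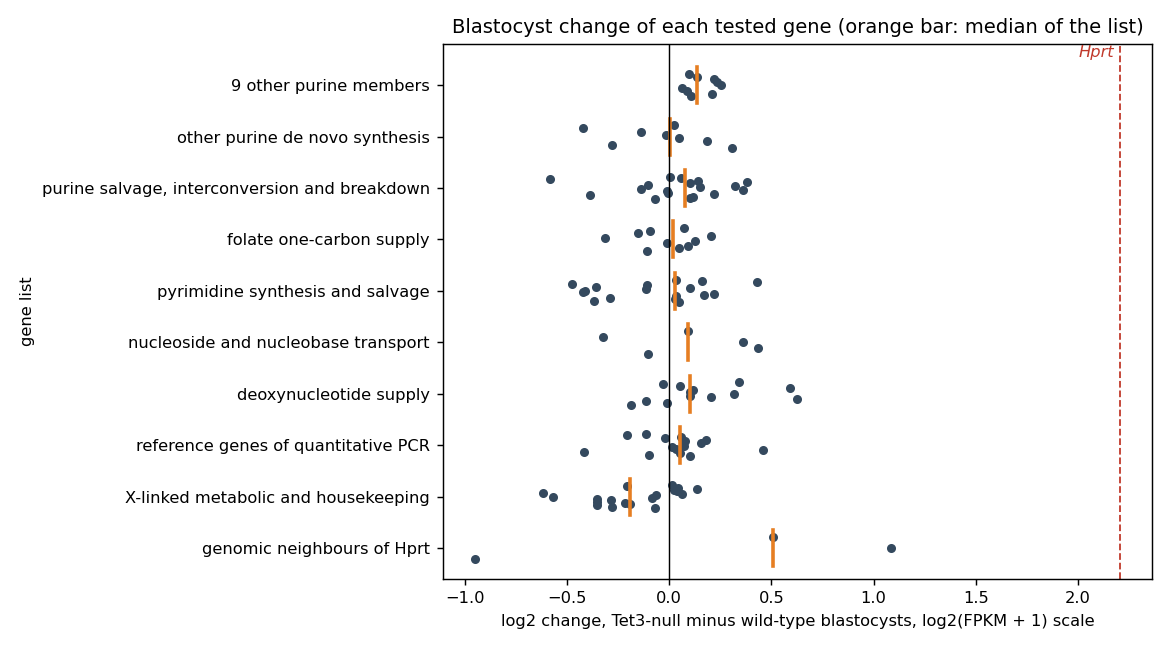
Log2 change between Tet3-null and wild-type blastocysts of each tested gene, by gene list, on the log2(FPKM + 1) scale. Points are genes and orange bars are list medians. Hprt (dashed line, 2.21) lies beyond every plotted gene, and medians of the plotted lists lie between -0.19 and 0.51. The sex-linked list, with a median of 0.56, is not plotted.

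Hprt is also used as a reference gene in quantitative PCR and lies on the X chromosome, so it was set beside other genes of both kinds. The 16 other reference genes had blastocyst log2 changes of -0.42 to 0.46 with a median of 0.06. None was called, where 0.0664% of all genes were. Actb had 12611 and 12309 FPKM in Tet3-null blastocysts, against 12910 and 14058 FPKM in wild-type blastocysts. Gapdh had 376 and 368 FPKM in Tet3-null blastocysts, against 421 and 437 FPKM in wild-type blastocysts. With stage, Actb rose 20.1-fold among Tet3-null and 22.8-fold among wild-type embryos, and the transferrin receptor gene Tfrc fell 9.38- and 18.2-fold. The 19 X-linked metabolic and housekeeping genes, which include Prps1 and Prps2, ranged from -0.62 to 0.14 in blastocysts with a median of -0.19. Of these X-linked genes none was called, against the same 0.0664% of all genes.

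Sex-linked transcripts and trophectoderm markers differed between the blastocyst groups in level, though none of these genes was called, against 0.0664% of all genes. The 7 Y-linked genes other than Sry summed to 102 and 94.5 FPKM in Tet3-null blastocysts, against 54.8 and 49.7 FPKM in wild-type blastocysts, and each of the 7 was higher in Tet3-null without overlap, as 19.0% of all genes were. Sry, below the filter, was listed at 0 in both Tet3-null and 1 wild-type blastocyst library, and at 0.0331 FPKM in the other wild-type one. Xist had 6.36 and 4.64 FPKM in Tet3-null blastocysts, against 16.6 and 14.6 FPKM in wild-type blastocysts (adjusted p = 0.260). The sum of 6 trophectoderm markers was 2966 and 2722 FPKM in Tet3-null blastocysts, against 4507 and 4191 FPKM in wild-type blastocysts, with 4 of the 6 lower in Tet3-null without overlap, as were 25.3% of all genes. The sum of 7 inner cell mass markers was 356 and 366 FPKM in Tet3-null and 342 and 330 FPKM in wild-type blastocysts. The part of these differences in the level of Hprt was not tested.

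Neighbours of Hprt on the X chromosome were mostly below the filter on low values. Of the 10 nearest listed genes, 5 on either side, 3 reached the filter and none was called by genotype. The shares of all genes called were 0.0664% in blastocysts and 2.72% in 2-cell embryos. Phf6, a chromatin-associated zinc finger gene, had 7.49 and 8.54 FPKM in Tet3-null blastocysts, against 5.34 and 5.31 FPKM in wild-type blastocysts. Ccdc160 had 10.8 and 16.04 FPKM in Tet3-null blastocysts, against 6.10 and 5.28 FPKM in wild-type blastocysts. The noncoding transcript C430049B03Rik went the other way, at 4.85 and 4.39 FPKM in Tet3-null blastocysts, against 10.3 and 9.43 FPKM in wild-type blastocysts. None of these 3 differed by as much as Hprt, with log2 changes between -0.95 and 1.09.

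The genes with a pattern most like that of Hprt were no purine genes. The 5 with the highest Pearson r of log2(FPKM + 1) with Hprt over the 8 libraries were Mir1902 (0.976), Trim40 (0.969), Dnaic1 (0.968), 4930504O13Rik (0.966) and Capn6 (0.958). Mir1902, a short gene whose FPKM is unstable, had 51.9 and 29.3 FPKM in Tet3-null blastocysts, against 2.77 FPKM or less elsewhere, and the other 4 stayed at 3.77 FPKM or less in every library. Trim40 had 3.77 and 3.53 FPKM in Tet3-null blastocysts, against 0.576 and 1.32 FPKM in wild-type blastocysts. Capn6, an X-linked gene, had 1.97 and 1.66 FPKM in Tet3-null blastocysts, against 0.462 and 0.891 FPKM in wild-type blastocysts. The points of these correlations share libraries and stages, so r follows stage as well as genotype. Within the purine set the highest r with Hprt was 0.779 for Paics, followed by 0.764 for Gart and 0.707 for Aprt, and the lowest were -0.644 for Ppat and -0.631 for Prps1.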

How the data were processed

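RNA of pooled embryos was amplified as cDNA with a SMARTer low-input kit, per the labels' protocols, and sequenced in 8 libraries. The authors deposited 1 FPKM value per gene and library. Per the submitters' processing notes they used TopHat2 2.0.10 with Bowtie2 2.1.0 for alignment on mm9, then Cufflinks 2.2.0. The annotation is not given in the sources used here, nor is the treatment of multiply mapped reads, and read totals are unknown. Having 2 libraries per group limits the precision. Relative depth within a stage, from the steps of low FPKM values, spanned 1.00 to 1.31 times wild-type replicate 1.

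Values were put on the log2(FPKM + 1) scale, which understates changes of low genes, after keeping the 13549 genes that reached 1 FPKM in 2 or more libraries. limma 3.58.1 (R 4.3.3) fitted means of the 4 groups to all 8 libraries with trended empirical Bayes moderation (residual df 4, prior df 3.07). P-values are two-sided, adjusted by Benjamini-Hochberg across the whole table, and a call means an adjusted p of at most 0.05. Fold values in the text are ratios of mean FPKM. The fit was tested on simulated data. The members, the gene lists and the rule for naming genes (the members, Tet3, and up to 4 called genes per list and comparison by smallest p) were chosen with earlier results of these data known. Of the list genes, Ak6 and Uba1y were not matched. Promoter windows came from RefSeq (GRCm38.p6), and shared sequence was counted in 50-base windows of each gene's longest coding transcript in the reference annotation. Same-numbered replicates were checked for pairing: their deviations correlated at -0.08 to 0.02 between groups. Alternatives were median-of-ratios scaling, quantile normalization, a pseudocount of 0.1, no filter, the spread of the compared groups alone, a replicate block, and leaving out each library.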

Additional observations from a re-analysis of the deposited data

How the results depend on the processing

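Over 14 alternatives (13 for the difference of effects), the count of called purine genes moved by over 1.5 times only where Tet3-null 2-cell replicate 1 was left out. For genotype in 2-cell embryos, leaving out libraries in turn gave 0 to 7 called, and for the difference of genotype effects 0 to 6. In blastocysts 0 of 9 were called by genotype in every alternative. With stage, every alternative called Aprt, Gart, Impdh1 and Paics as higher and Prps1 as lower in both genotypes. Quantile normalization added Impdh2 as lower with stage among wild-type embryos (adjusted p = 0.0197). With replicate numbers as a block, which the pairing check did not bear out, 0, 0, 0, 7 and 6 genes were called for genotype in 2-cell embryos, genotype in blastocysts, the difference of effects, and stage among Tet3-null and wild-type embryos, as without the block.

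Signs turned only for log2 changes that were not called. Under median-of-ratios scaling Prps1 had a difference of effects of -0.16 and Adsl a wild-type stage change of 0.047, and under quantile normalization Impdh2 had a Tet3-null stage change of -0.022. Leaving out libraries in turn gave -0.061 to 0.21 for Prps1 and -0.14 to 0.42 for Adsl in 2-cell embryos, -0.17 to 0.34 for Impdh1 and -0.15 to 0.28 for Adsl in blastocysts, -0.077 to 0.20 for Prps1 and -0.36 to 0.20 for Adsl in the difference of effects, and -0.46 to 0.10 for Adsl with stage among Tet3-null embryos. The causes were not tested. With 2 libraries per group and FPKM without read totals, small changes could not be detected, and not only in weakly expressed genes. Aprt, at 477 FPKM or more in every blastocyst library, had a 95% interval of -0.62 to 0.82 between blastocyst genotypes. A gene that was not called may therefore still differ.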
